A study of Mus musculus with 16 samples.

Results

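The genes described here are the ligands, receptors and co-receptors of vascular endothelial growth factor (VEGF) in lung endothelial cells (ECs), which form the inner wall of vessels. The 8 members were chosen by gene name from a deposited table of 43346 genes, and all 8 were found once each. They comprise the receptors Kdr and Flt1, the neuropilin co-receptors Nrp1 and Nrp2, and the ligands Vegfa, Vegfb, Pgf and Vegfc. RNA was sequenced from ECs sorted from mouse lungs, in 16 libraries of 4 groups. Sham mice given PBS were 2 months old (Young Sham, n = 5) or 18 months old (Aged Sham, n = 3), and mice of the same ages (Young Bleo and Aged Bleo, n = 4 each) were given bleomycin, a drug that injures the lung and is followed by fibrosis. All mice were of the FVB strain. Per the methods of the study, mice of all groups carried a Col1a1-GFP transgene, bleomycin or PBS was delivered into the trachea, and lungs were taken a month later. The methods describe the sorted cells as CD31-positive and negative for CD45 (a leukocyte protein), EpCAM (an epithelial protein) and GFP, so that cells with an active Col1a1 reporter were left out. The question was how the expression of these genes differed with age, with injury, and with both.

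VEGF ligands are secreted proteins that bind receptor tyrosine kinases on ECs. Kdr encodes VEGFR2, the receptor that carries most of the growth, survival and permeability signal of VEGF-A, whereas Flt1 encodes VEGFR1, which binds VEGF-A tightly, signals weakly and also exists as a soluble form that holds ligand back. Neuropilins lack a kinase and present ligand to the receptors. In the lung, VEGF-A from the alveolar epithelium is needed for the alveolar capillaries, and the aerocyte, a large thin capillary EC that lies against the gas exchange surface, is known for high Kdr.

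The 2 most abundant members, Kdr and Nrp1, fell after bleomycin in young ECs, while Nrp2 and Vegfc rose, the last by DESeq2 but not by edgeR. In Young Bleo against Young Sham, Kdr was 3.12-fold lower and Nrp1 2.52-fold lower, Nrp2 was 3.87-fold higher and Vegfc 1.76-fold higher. In aged ECs compared with their own sham libraries, Nrp2 (2.50-fold) and Vegfa (1.83-fold) were called higher and no member was called lower, and the Vegfa call was likewise not shared by edgeR. Flt1, the second kinase receptor, was not called in any comparison. No member was called for age alone, in sham or in injured ECs.

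All 8 members are protein-coding genes, and their coordinates are taken from the deposited table (mm10). Kdr (ENSMUSG00000062960) lies on the minus strand at chr5:75932827-75978458 and Flt1 (ENSMUSG00000029648) on the minus strand of the same chromosome at chr5:147561604-147726011. Nrp1 (ENSMUSG00000025810) lies on the plus strand at chr8:128359073-128505462 and Nrp2 (ENSMUSG00000025969) on the plus strand at chr1:62703285-62818695. Vegfa (ENSMUSG00000023951) lies on the minus strand at chr17:46016993-46032377, Vegfb (ENSMUSG00000024962) on the minus strand at chr19:6982473-6987651, Pgf (ENSMUSG00000004791) on the minus strand at chr12:85166639-85177296, and Vegfc (ENSMUSG00000031520) on the plus strand at chr8:54077532-54186454. Each value is a sum over a whole gene, so the soluble and membrane forms of Flt1 and of the neuropilins, and the splice forms of Vegfa, could not be told apart. Nrp1 overlaps the microRNA gene Mir1903, with at most 108 counts against at least 29911 for Nrp1. Nrp2 overlaps the antisense gene Gm29083 (at most 7 counts) and RP23-149A5.4 (at most 64 counts), against at least 370 counts for Nrp2. No other gene of the table overlaps the other 6 members.

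The stretch just upstream of the start site is shown for the receptors Kdr and Flt1, which differed in their response, and for Nrp2 and Vegfc, which rose. The study centred on ERG, a factor of the ETS family, whose members bind DNA around the letters GGAA. Each sequence runs 5′ to 3′ on the strand of its gene, covers 218 bases that end 33 bases before the RefSeq start (RefSeq, GRCm38.p6), and has GGAA and its reverse complement TTCC in capitals. The positions are chr5:75978488-75978705 (minus strand) for Kdr, chr5:147726044-147726261 (minus strand) for Flt1, chr1:62703067-62703284 (plus strand) for Nrp2 and chr8:54077282-54077499 (plus strand) for Vegfc.
Kdr: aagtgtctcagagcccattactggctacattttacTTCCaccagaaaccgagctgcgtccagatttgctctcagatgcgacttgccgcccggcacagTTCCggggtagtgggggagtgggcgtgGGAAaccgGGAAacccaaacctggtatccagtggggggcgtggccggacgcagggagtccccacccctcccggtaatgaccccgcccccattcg
Flt1: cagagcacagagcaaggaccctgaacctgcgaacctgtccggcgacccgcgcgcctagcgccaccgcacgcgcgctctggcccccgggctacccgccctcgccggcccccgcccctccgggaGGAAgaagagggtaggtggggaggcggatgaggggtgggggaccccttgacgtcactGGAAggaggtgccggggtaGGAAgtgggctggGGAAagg
Nrp2: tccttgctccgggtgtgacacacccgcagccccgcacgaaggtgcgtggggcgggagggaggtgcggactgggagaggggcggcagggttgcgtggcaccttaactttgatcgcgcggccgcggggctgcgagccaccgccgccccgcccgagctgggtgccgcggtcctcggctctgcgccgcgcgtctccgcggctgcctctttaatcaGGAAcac
Vegfc: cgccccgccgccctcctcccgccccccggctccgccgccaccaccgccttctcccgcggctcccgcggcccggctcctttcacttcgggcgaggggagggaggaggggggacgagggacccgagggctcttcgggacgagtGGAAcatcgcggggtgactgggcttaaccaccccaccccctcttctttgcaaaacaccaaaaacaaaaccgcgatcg

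The Kdr and Flt1 stretches each held 4 matches to GGAA on either strand, and those of Nrp2 and Vegfc held 1 each. Of the other members, Nrp1 and Vegfa held 4, Vegfb held 1 and Pgf held 0. A match was present in 90.9% of 32851 promoter stretches of this length, with a median of 2, so its presence separates few genes. The hypoxia response core ACGTG, read on both strands, was in none of the 8 members and in 14.3% of all stretches. The Sp1 box GGGCGG, also on both strands, was in all 8 members, from 1 match in Nrp1 and Pgf to 4 in Nrp2 and Vegfb, and in 28.2% of all stretches. The count of GGAA did not separate members by their response, since Kdr and Nrp1, which fell, and Flt1, which was not called, each held 4. A match is a description of the sequence only.

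Total counts per library ranged from 20907113 to 71035301. Every library expressed the endothelial markers Pecam1 (66.6 to 152 FPKM) and Cdh5 (67.6 to 111 FPKM), whereas Epcam stayed at or under 0.798 FPKM and Ptprc, which encodes CD45, at or under 0.517 FPKM. Epithelial RNA was present all the same, with 10 epithelial markers summing to 142 to 637 FPKM and the surfactant gene Sftpc at 43.4 to 378 FPKM in every library. By group the sums were 229 to 461 FPKM in Young Sham, 169 to 433 in Young Bleo, 277 to 637 in Aged Sham and 142 to 539 in Aged Bleo. Against Young Sham, 2 of the 10 were called lower in Young Bleo (2 by edgeR) and 1 in Aged Bleo (1 by edgeR). Between the injured groups, 1 was called higher in Aged Bleo (0 by edgeR). The part of epithelial RNA in the result was not tested. FPKM are fragment counts scaled to gene length and library size, a level that can be compared between genes. The methods name female and male mice. Every library looked male, however, with Xist at or under 0.0222 FPKM and the Y-linked Ddx3y at 2.52 to 6.74 FPKM. Young Bleo 20 stood apart from the other libraries of its group in several members, and Aged Bleo 3 and Aged Bleo 5 lay nearer to sham than Aged Bleo 1 and Aged Bleo 2 did for Kdr and Nrp1. Values of these libraries are therefore given singly, and calls that change without them are named. The labels do not say whether libraries of a group came from separate mice, while the study describes its lungs as those of individual mice, and the p-values measure the spread between these libraries.

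In uninjured young ECs the members fell into tiers of abundance. Nrp1 averaged 159 ± 15.1 FPKM and Kdr 144 ± 31.1 FPKM (SD, n = 5), and their ranges overlapped. Vegfa at 15.0 ± 3.72, Flt1 at 13.4 ± 1.05 and Vegfc at 13.4 ± 1.79 FPKM (SD, n = 5) followed, with overlapping ranges. Vegfb at 3.92 ± 0.193 and Pgf at 3.01 ± 0.800 FPKM overlapped in turn, and Nrp2, at 0.642 ± 0.185 FPKM (SD, n = 5), lay below every other member in every Young Sham library. The order of the extremes held in the other groups, with Nrp1 and then Kdr at the top and Nrp2 at the bottom by mean. The middle tier did not keep its order, since Vegfc passed Vegfa and Flt1 by mean in Aged Sham, Young Bleo and Aged Bleo, although the ranges of these genes still overlapped there.

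**Figure D1:**
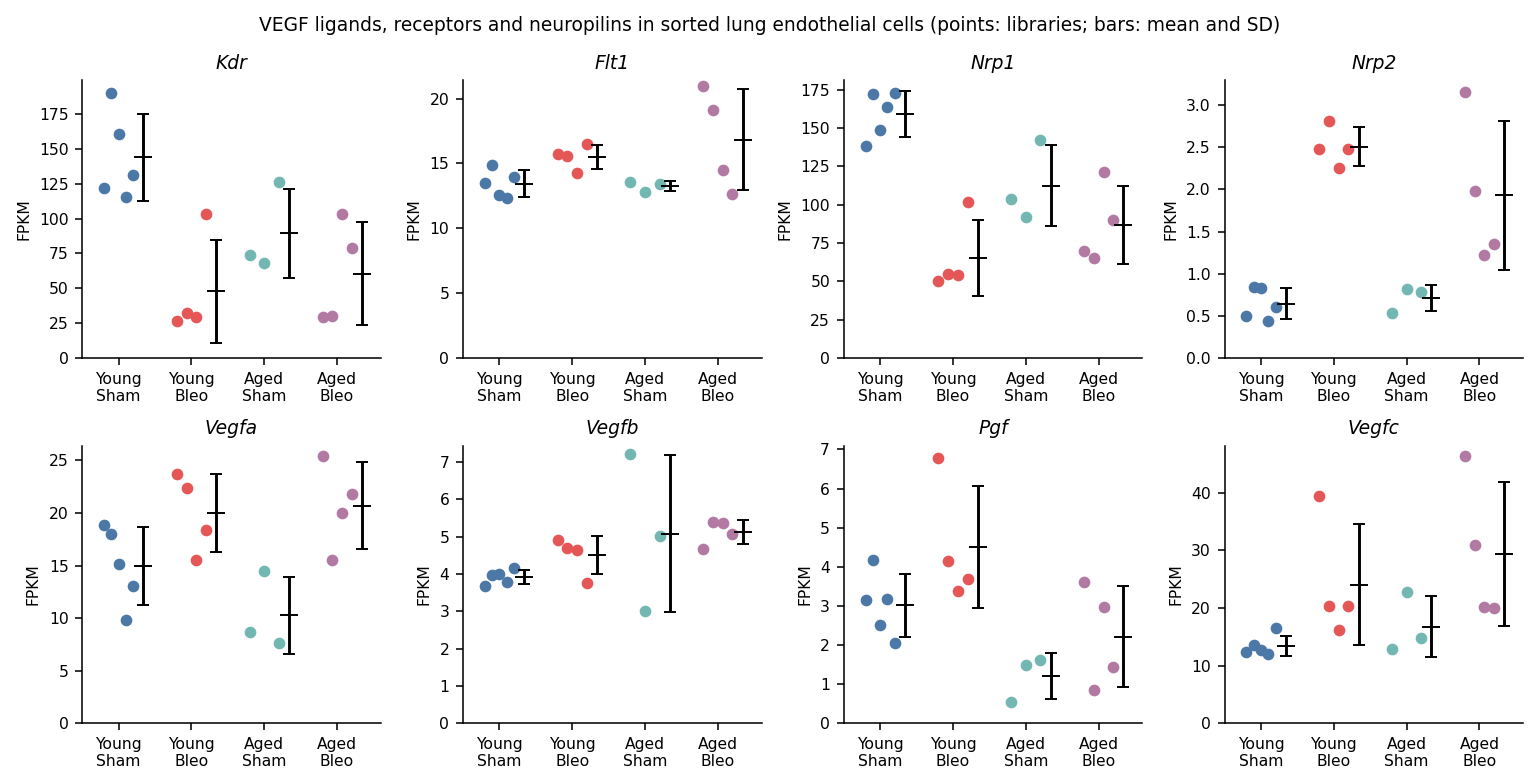
Level of each member in FPKM (linear axes from 0), with 1 point per library for the 4 groups, and the group mean with its SD as a black bar beside the points. All Young Bleo libraries lie below all Young Sham libraries for Kdr and Nrp1 and above them for Nrp2, with Young Bleo 20 apart from the other 3 libraries of its group at 103 FPKM of Kdr.

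Counts were tested with DESeq2 across all genes, and a call needed both an adjusted p no higher than 0.05 and a log2 fold change of 0.5 or more in either direction. In Young Bleo against Young Sham, 4 of 8 members were called, 2 higher and 2 lower, where 13.9% of all genes tested were called (7.57% higher and 6.35% lower). Within aged ECs (Aged Bleo against Aged Sham), 2 of 8 members were called, both higher, where 5.85% of all genes were called (3.40% higher and 2.45% lower). With Aged Bleo against Young Sham, the injured aged ECs set against the young baseline, 4 of 8 were called, 2 higher and 2 lower, with a background of 9.73% (6.58% higher and 3.15% lower). The 3 bleomycin comparisons share control or treated libraries, so their values are given side by side and not as support for each other. The edgeR quasi-likelihood test called 3, 1 and 3 members in these comparisons, in the order given.

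No member was called in the comparisons of age. In Aged Sham against Young Sham, 0 of 8 members were called by DESeq2, with a background of 3.36% (2.24% higher and 1.12% lower). In Aged Bleo against Young Bleo, 0 of 8 were called, with a background of 1.01% (0.595% higher and 0.411% lower). The response to bleomycin in aged ECs minus that in young ECs was called for 0 of 8 members, with a background of 0.417% (0.149% higher and 0.267% lower). Before adjustment, 2, 2 and 1 members had a p under 0.05 in these comparisons, and edgeR called 0 members in each. The background shares moved with single libraries, as the 1084 genes called in Aged Bleo against Aged Sham became 476 without Aged Bleo 1. On simulated counts, DESeq2 made more false calls than its threshold allows and edgeR few, so calls by DESeq2 alone are the less secure ones.

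**Figure D2:**
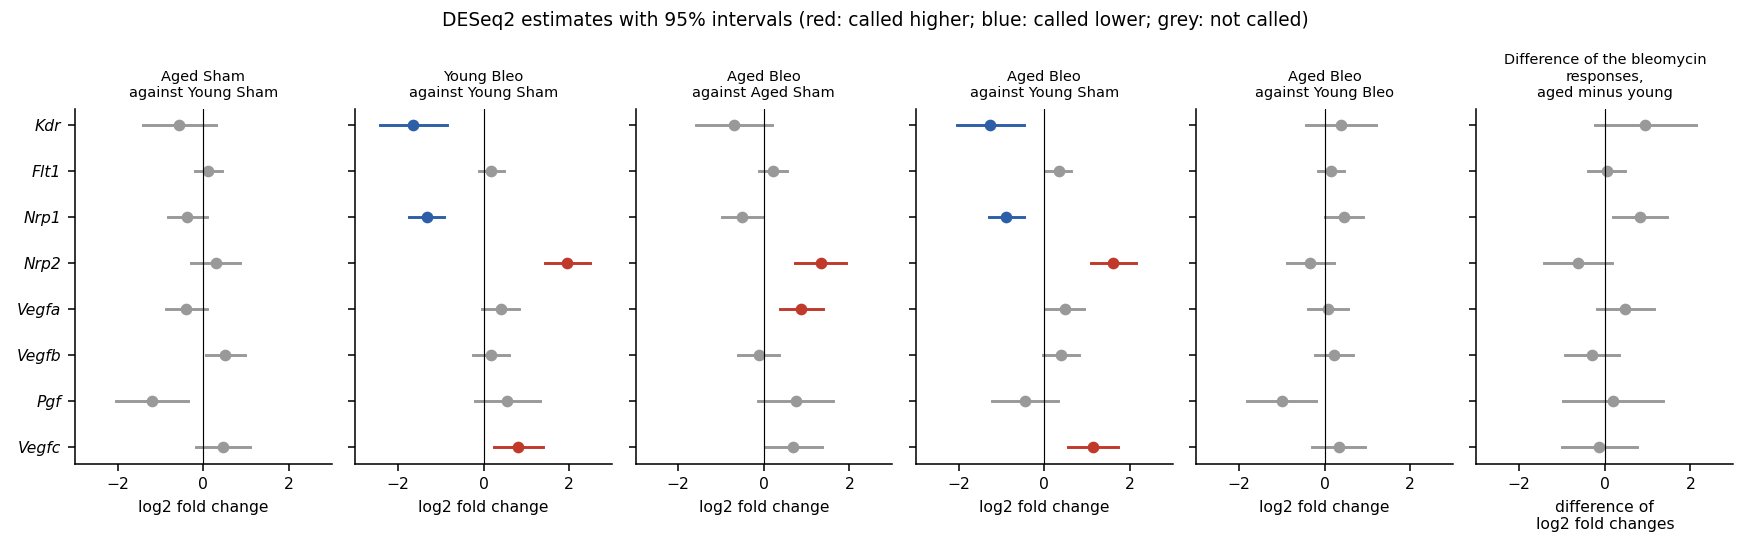
DESeq2 log2 fold change of each member (points) with its 95% confidence interval (lines) in the 5 pairwise comparisons and, in the last panel, the difference of the bleomycin responses between ages. Red marks members called higher, blue members called lower and grey members not called, so that coloured points appear only in the 3 panels that set bleomycin libraries against sham libraries.

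Kdr, the main signalling receptor, was at 122, 190, 161, 116 and 131 FPKM in Young Sham 21 to 25. It was at 26.5, 32.0 and 29.3 FPKM in Young Bleo 17, 18 and 19, and at 103 FPKM in Young Bleo 20. The groups did not overlap, yet Young Bleo 20 lay close to the lowest sham library and far from the rest of its group. By DESeq2 the log2 fold change was -1.64 (SE 0.40, adjusted p = 0.000812), and edgeR called it too (adjusted p = 0.0227). Leaving out Young Bleo 20 moved the estimate to -2.29, and Kdr stayed called whichever of the 16 libraries was left out. In bulk RNA, fewer cells of a type that expresses a gene and less RNA per cell cannot be told apart, and this holds for every member.

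In aged ECs, Kdr was at 73.6, 68.3 and 126 FPKM in Aged Sham 13, 14 and 15, and at 29.5, 30.1, 103 and 78.7 FPKM in Aged Bleo 1, 2, 3 and 5. Aged Bleo 1 and 2 matched the low young libraries, while Aged Bleo 3 and 5 lay within the range of their own sham group. The groups overlapped, and the DESeq2 estimate was -0.70 with a 95% interval of -1.58 to 0.19 (adjusted p = 0.433). Against Young Sham, every Aged Bleo library was lower, by 2.39-fold (log2 fold change -1.26, SE 0.40, adjusted p = 0.0203). That call was not shared by edgeR (adjusted p = 0.0900) and was lost without Aged Bleo 1 (adjusted p = 0.119), Aged Bleo 2 (0.115) or Young Sham 22 (0.0671).

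Flt1, the high-affinity receptor, differed far less between groups than Kdr. It was at 13.5, 14.9, 12.6, 12.3 and 13.9 FPKM in Young Sham, and at 15.8, 15.5, 14.3 and 16.5 FPKM in Young Bleo. In Aged Sham it was at 13.6, 12.8 and 13.4 FPKM, and in Aged Bleo at 21.0, 19.2, 14.5 and 12.7 FPKM. The sham libraries of both ages stayed between 12.3 and 14.9 FPKM, and the highest values were in Aged Bleo 1 and 2, which were the lowest of the Aged Bleo libraries in Kdr. The DESeq2 log2 fold change was 0.18 in Young Bleo against Young Sham (95% interval -0.11 to 0.47, adjusted p = 0.479), 0.22 in Aged Bleo against Aged Sham (-0.11 to 0.55, adjusted p = 0.526) and 0.34 in Aged Bleo against Young Sham (0.05 to 0.63, adjusted p = 0.124).

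Nrp1, the co-receptor of VEGF-A and VEGFR2 and a receptor of class 3 semaphorins, was at 138, 172, 149, 164 and 173 FPKM in Young Sham. In Young Bleo it was at 49.9, 54.9, 53.9 and 102 FPKM, with Young Bleo 20 again the highest of its group and below every Young Sham library. The log2 fold change was -1.33 (SE 0.21, adjusted p = 8.80e-08 by DESeq2), and edgeR called it (adjusted p = 0.00227). In Aged Sham it was at 103, 91.7 and 142 FPKM and in Aged Bleo at 69.6, 65.3, 121 and 89.9 FPKM, so these groups overlapped. The estimate within aged ECs was -0.50 (95% interval -0.98 to -0.03, adjusted p = 0.228), and it was called only without Aged Bleo 3 (-0.69, adjusted p = 0.0423). Against Young Sham, Nrp1 was lower in all 4 Aged Bleo libraries (log2 fold change -0.88, SE 0.21, adjusted p = 0.00109 by DESeq2 and 0.0218 by edgeR).

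Nrp2, the co-receptor of VEGF-C and of class 3 semaphorins and a marker of venous and lymphatic endothelium, was at 0.497, 0.840, 0.828, 0.441 and 0.602 FPKM in Young Sham. It was at 2.48, 2.81, 2.26 and 2.48 FPKM in Young Bleo. All 4 injured libraries lay well above all sham libraries, and Young Bleo 20, apart from its group in Kdr and Nrp1, was in the middle of it here. The log2 fold change was 1.95 (SE 0.27, adjusted p = 2.32e-10 by DESeq2 and 0.00104 by edgeR).

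In aged ECs, Nrp2 was at 0.530, 0.823 and 0.783 FPKM in Aged Sham and at 3.16, 1.98, 1.22 and 1.35 FPKM in Aged Bleo. The groups did not overlap, and the libraries with the most Kdr (Aged Bleo 3 and 5) had the least Nrp2. The log2 fold change was 1.32 (SE 0.31, adjusted p = 0.00135), it stayed called by DESeq2 whichever library was left out, and edgeR placed it at an adjusted p of 0.04996, just inside the threshold. With limma voom it was not called (1.13, adjusted p = 0.115). Against Young Sham, the log2 fold change in Aged Bleo was 1.61 (SE 0.27, adjusted p = 3.02e-07 by DESeq2 and 0.00250 by edgeR).

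Vegfa, the principal ligand of both kinase receptors, was detected in every library. It was at 18.9, 18.0, 15.2, 9.82 and 13.0 FPKM in Young Sham and at 23.7, 22.3, 15.6 and 18.4 FPKM in Young Bleo, and these groups overlapped (log2 fold change 0.40, 95% interval -0.05 to 0.84, adjusted p = 0.253). In Aged Sham it was at 8.73, 14.5 and 7.60 FPKM, and in Aged Bleo at 25.5, 15.5, 20.0 and 21.8 FPKM. Every injured aged library was above every aged sham library, though Aged Bleo 2 and Aged Sham 14 were close. The log2 fold change was 0.87 (SE 0.26, adjusted p = 0.0181 by DESeq2). This call was not shared by edgeR (adjusted p = 0.0830) or by limma voom (0.127), was lost when the 2 aged groups were fitted alone (0.0657), and was lost without Aged Bleo 1 (0.109), Aged Sham 13 (0.0863) or Aged Sham 15 (0.151).

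Vegfc, the ligand of the lymphatic receptor VEGFR3 and of VEGFR2, was at 12.4, 13.5, 12.8, 11.97 and 16.5 FPKM in Young Sham and at 39.5, 20.3, 16.1 and 20.4 FPKM in Young Bleo. Young Bleo 17 was the highest of its group, and Young Bleo 19 overlapped the sham range. DESeq2 called it (log2 fold change 0.82, SE 0.30, adjusted p = 0.0403), but edgeR did not (adjusted p = 0.0765). The call rested on single libraries, since without Young Bleo 17 the estimate dropped to 0.46 (adjusted p = 0.316), and leaving out Young Bleo 18 or any 1 of Young Sham 21 to 24 ended the call too (adjusted p from 0.0546 to 0.0865).

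In aged ECs, Vegfc was at 12.8, 22.7 and 14.8 FPKM in Aged Sham and at 46.4, 30.9, 20.2 and 20.0 FPKM in Aged Bleo. The groups overlapped through Aged Sham 14, and the estimate of 0.69 (95% interval 0.03 to 1.35, adjusted p = 0.235) was not called. Against Young Sham, all 4 Aged Bleo libraries were higher, by 2.21-fold (log2 fold change 1.14, SE 0.30, adjusted p = 0.00261 by DESeq2 and 0.0256 by edgeR). Without Aged Bleo 1 this estimate was 0.85 and just missed the call (adjusted p = 0.0548).

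Pgf, which encodes placental growth factor, a ligand of VEGFR1, had the largest estimate of any member between the sham groups. It was at 3.16, 4.17, 2.50, 3.18 and 2.06 FPKM in Young Sham and at 0.536, 1.48 and 1.61 FPKM in Aged Sham, and the groups did not overlap. The log2 fold change was -1.20 (SE 0.43, 95% interval -2.03 to -0.36), and the DESeq2 adjusted p of 0.10 missed the threshold, as did that of edgeR (0.244). Fitting the 2 sham groups alone gave an adjusted p of 0.0217 for a like estimate of -1.20, and leaving out Aged Bleo 2 gave 0.0424. Without Aged Sham 13, the lowest library, the estimate was -0.86 (adjusted p = 0.383), the least of all libraries left out in turn. Pgf was at 6.78, 4.14, 3.39 and 3.70 FPKM in Young Bleo and at 3.61, 0.843, 2.98 and 1.44 FPKM in Aged Bleo, 2.01-fold lower in Aged Bleo (95% interval -1.81 to -0.20 on the log2 scale, adjusted p = 0.288).

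Vegfb, another ligand of VEGFR1, was at 3.67, 3.98, 3.99, 3.79 and 4.17 FPKM in Young Sham and at 4.92, 4.71, 4.64 and 3.76 FPKM in Young Bleo. It was at 7.22, 3.00 and 5.02 FPKM in Aged Sham, the widest spread of the 4 groups, and at 4.68, 5.39, 5.36 and 5.08 FPKM in Aged Bleo. No comparison was called, and the largest estimate was 0.52 in Aged Sham against Young Sham (95% interval 0.06 to 0.97, adjusted p = 0.248). Without Aged Sham 14, the library with the lowest Vegfb, that estimate was 0.79 and was called (adjusted p = 0.00843), and without Aged Sham 13, the library with the highest, it was 0.12 (adjusted p = 0.913).

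The comparison of the responses between ages gave its largest estimate for Kdr (0.95, 95% interval -0.23 to 2.13, adjusted p = 0.720) and its lowest p for Nrp1 (0.83, SE 0.32, unadjusted p = 0.0106, adjusted p = 0.365). For these genes, a positive value means a smaller estimated fall in aged ECs. Without Young Bleo 20, the Nrp1 difference was 1.08 and was called (adjusted p = 0.0111), as was Nrp1 in Aged Bleo against Young Bleo (0.71, adjusted p = 0.0179). For Kdr, leaving out that library gave a difference of 1.59 (adjusted p = 0.0717), and moved Aged Bleo against Young Bleo from 0.39 to 1.03 (adjusted p = 0.0869), neither of them called. The age difference in the response of Nrp1 thus turned on a single library. For Nrp2 the difference was -0.63 (95% interval -1.42 to 0.17, adjusted p = 0.730), for Vegfa 0.48 (-0.19 to 1.15, adjusted p = 0.765), and for the other 4 members it lay between -0.30 and 0.19.

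The levels within a library showed how the balance between related members shifted. In Young Sham there were 9.03 to 12.8 units of Kdr FPKM for each unit of Flt1, and in Young Bleo 1.68, 2.06, 2.06 and 6.24. In Aged Sham the Kdr to Flt1 ratio was 5.43, 5.33 and 9.41, and in Aged Bleo it was 1.41, 1.57, 7.13 and 6.21. The ratio of Nrp1 to Nrp2 was 180 to 372 in Young Sham and 111 to 195 in Aged Sham, against 19.6 to 41.0 in Young Bleo and 22.0 to 99.6 in Aged Bleo. Every bleomycin library was thus below every sham library in the Nrp1 to Nrp2 ratio, whereas the Kdr to Flt1 ratio of Young Bleo 20, Aged Bleo 3 and Aged Bleo 5 lay within the Aged Sham range. The Vegfa to Vegfc ratio was 0.792 to 1.53 in Young Sham, 0.601 to 1.10 in Young Bleo, 0.514 to 0.681 in Aged Sham and 0.502 to 1.09 in Aged Bleo.

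**Figure D3:**
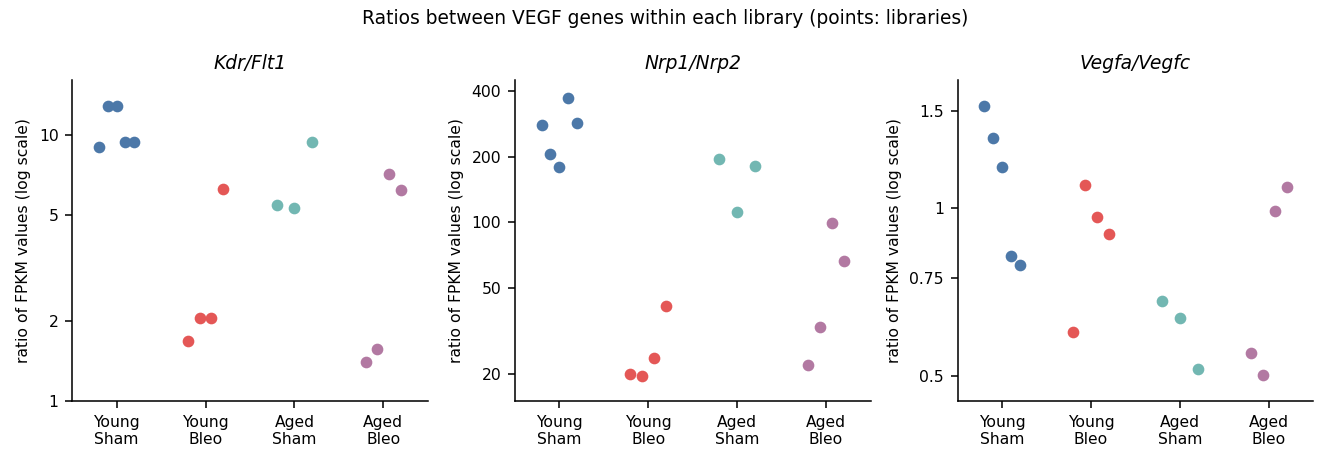
Ratio of the FPKM values of Kdr to Flt1, Nrp1 to Nrp2 and Vegfa to Vegfc (log axes), 1 point per library in each of the 4 groups. Nrp1 to Nrp2 separates all sham libraries (111 or more) from all bleomycin libraries (99.6 or less), while Kdr to Flt1 splits each bleomycin group into low libraries (1.41 to 2.06) and higher ones (6.21 to 7.13).

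Markers of EC types moved with these genes. Aerocyte markers (8 genes, among them Car4, Ednrb and Apln) summed to 1974 to 2448 FPKM in Young Sham and 1579 to 2518 FPKM in Aged Sham. They summed to 253, 337, 476 and 1306 FPKM in Young Bleo 17, 18, 19 and 20, and to 243, 415, 1736 and 1394 FPKM in Aged Bleo 1, 2, 3 and 5. All 8 were called lower in Young Bleo against Young Sham (7 by edgeR, median log2 fold change -1.94 against 0.01 over all genes), 0 of 8 in Aged Bleo against Aged Sham by DESeq2 and by edgeR, with 3 at an unadjusted p under 0.05 (median -1.11 against 0.01), and 2 of 8 in Aged Bleo against Young Sham (0 by edgeR). The bleomycin libraries with the most Kdr and Nrp1 were those with the most aerocyte marker RNA, and the part of these markers in the result was not tested. Relative to the aerocyte sum, Kdr was 4.73% to 8.66% in Young Sham, 3.88% to 5.01% in Aged Sham, 6.16% to 10.5% in Young Bleo and 5.64% to 12.2% in Aged Bleo, so on that scale the young groups overlapped and every Aged Bleo library was above every Aged Sham library. Nrp1 was 6.39% to 7.85% of that sum in Young Sham and 7.81% to 19.7% in Young Bleo, which overlapped, and 5.45% to 5.81% in Aged Sham and 6.45% to 28.6% in Aged Bleo, which did not. The divisor itself was lower in most bleomycin libraries, so such a share rises for a gene whose level stays the same. Flt1, not called in any comparison, was 0.503% to 0.677% in Young Sham and 1.26% to 6.22% in Young Bleo. It was 0.532% to 0.812% in Aged Sham and 0.836% to 8.63% in Aged Bleo, so a higher share was not particular to Kdr and Nrp1.

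**Figure D4:**
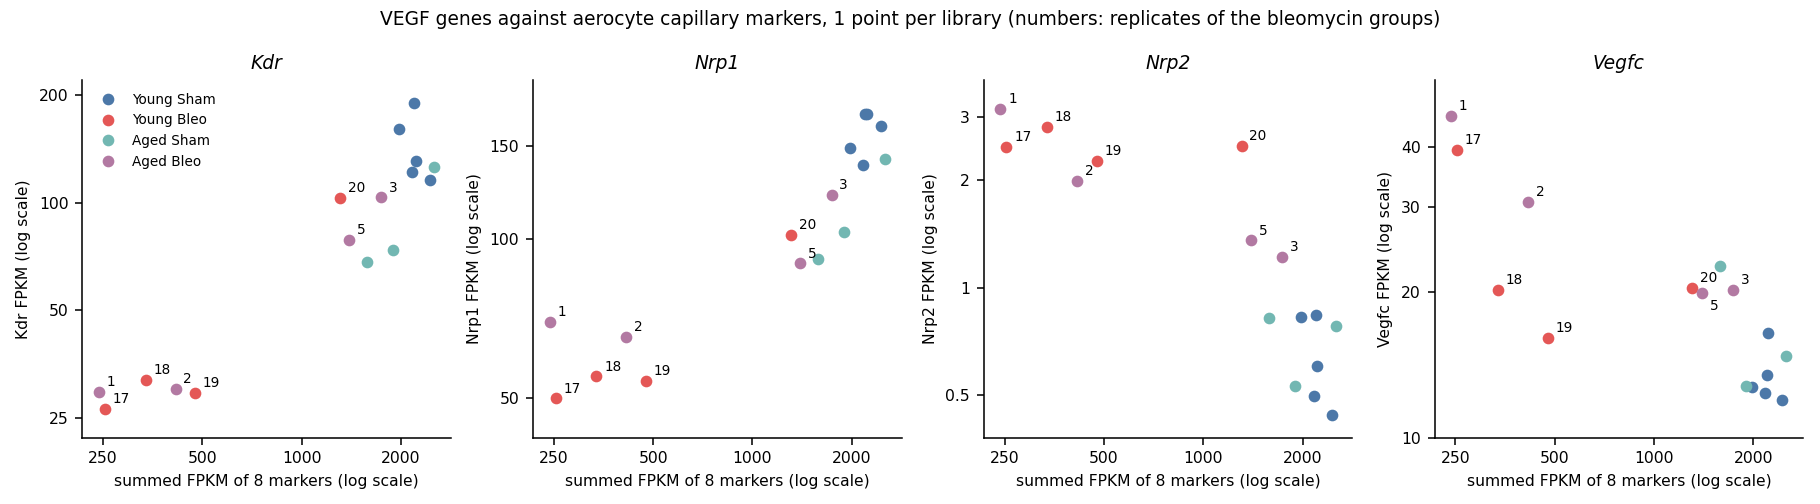
FPKM of Kdr, Nrp1, Nrp2 and Vegfc against the summed FPKM of 8 aerocyte capillary markers, 1 point per library, with log scales on all axes and the replicate number beside each bleomycin library. Kdr and Nrp1 are low in the 5 libraries with 243 to 476 FPKM of marker RNA (Young Bleo 17 to 19, Aged Bleo 1 and 2), and Young Bleo 20 has high Nrp2 (2.48 FPKM) at 1306 FPKM of marker RNA.

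Marker RNA of other EC types and of other cells differed between the groups as well. Counts of called markers are to be read beside the shares of all genes given above for each comparison. Arterial markers (7 genes) summed to 107 to 188 FPKM in Young Sham, 312 to 629 in Young Bleo, 90.7 to 158 in Aged Sham and 187 to 615 in Aged Bleo, with 5 of 7 called higher in Young Bleo against Young Sham and 5 of 7 in Aged Bleo against Aged Sham (0 by edgeR in the latter). Lymphatic markers (7 genes) summed to 265 to 364, 681 to 1529, 254 to 348 and 317 to 612 FPKM in the same order of groups, with the lymphatic factor Prox1 at 0.0897 to 1.27 FPKM over all libraries. These sums were mostly Ccl21a, at means of 263, 970, 264 and 396 FPKM, and Lyve1, Flt4 and Mmrn1 were not called in any comparison. Of the 7, 4 were called higher in Young Bleo against Young Sham (3 by edgeR) and 0 in Aged Bleo against Aged Sham. In Aged Bleo against Young Sham, 1 was called higher (0 by edgeR). Young Bleo 17, with the highest Vegfc of its group, also had the highest lymphatic sum (1529 FPKM). Venous markers (6 genes) summed to 30.9 to 44.9, 46.7 to 83.5, 36.1 to 73.2 and 67.8 to 77.5 FPKM. Of the 6, 2 were called higher in Young Bleo against Young Sham (1 by edgeR) and 1 in Aged Bleo against Aged Sham (0 by edgeR). Against Young Sham, 3 were called higher in Aged Bleo (3 by edgeR) and 2 in Aged Sham (1 by edgeR). The arterial, lymphatic and venous sums are those to set beside Nrp2 and Vegfc, and their part in the rise of both genes was not tested. General capillary markers (7 genes) summed to 522 to 742 FPKM in Young Sham, 732 to 908 in Young Bleo, 369 to 565 in Aged Sham and 621 to 787 in Aged Bleo. Of these, 3 of 7 were called lower in Aged Sham against Young Sham and 4 of 7 higher in Aged Bleo against Aged Sham (2 by edgeR in each). Pericyte and smooth muscle markers (8 genes) summed to 54.7 to 115 FPKM in Young Sham, 19.7 to 49.1 in Young Bleo, 29.1 to 52.8 in Aged Sham and 13.0 to 23.1 in Aged Bleo. Of these, 5 of 8 were called lower in Young Bleo against Young Sham (3 by edgeR) and 8 of 8 in Aged Bleo against Young Sham (8 by edgeR), where Kdr and Nrp1 were called lower. In Aged Sham against Young Sham and in Aged Bleo against Aged Sham, where neither gene was called, 2 of 8 were called lower (0 by edgeR), at medians of -1.39 and -1.32. The part of these markers in the result was not tested. The sum of 8 pan-endothelial markers was 2940 to 3521 FPKM in Young Sham, 2044 to 2502 in Young Bleo, 2648 to 2877 in Aged Sham and 1896 to 2620 in Aged Bleo, and its part was not tested either.

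Macrophage and leukocyte markers (11 of 12 listed were in the table) summed to 22.9 to 43.5 FPKM in Young Sham, 153 to 443 in Young Bleo, 53.0 to 182 in Aged Sham and 211 to 1553 in Aged Bleo, mostly Lyz2 (20.9 to 1265 FPKM over all libraries). Of these, 8 of 11 were called higher in Young Bleo against Young Sham and 6 of 11 in Aged Bleo against Aged Sham (2 by edgeR). Aged Bleo 1, with the highest sum, also had the highest Vegfa, Vegfc, Nrp2 and Flt1 of its group. Ptprc, the defining leukocyte gene, was low but moved the same way, from a mean of 0.0105 FPKM in Young Sham to 0.0692 in Young Bleo (log2 fold change 2.74, adjusted p = 0.00586) and 0.242 in Aged Bleo (4.57 against Young Sham, adjusted p = 7.08e-07). In Aged Bleo against Aged Sham it was not called (2.30, adjusted p = 0.0962). Platelet markers summed to 3384 FPKM in Aged Sham 14 and to 627 to 953 FPKM in the other Aged Sham libraries, against 270 to 512 FPKM in Young Sham, 109 to 246 in Young Bleo and 65.0 to 482 in Aged Bleo. Of 5 platelet markers, 4 were called higher in Aged Sham against Young Sham (1 by edgeR) and 4 lower in Aged Bleo against Aged Sham (2 by edgeR), the comparison in which Nrp2 and Vegfa were called higher. Mesothelial markers (5 genes) summed to 0.629 to 2.57 FPKM in Young Sham, 6.29 to 17.9 in Young Bleo, 4.56 to 14.7 in Aged Sham and 1.26 to 7.79 in Aged Bleo, with 4 of 5 called higher in Young Bleo (4 by edgeR), 3 in Aged Sham and 3 in Aged Bleo (2 by edgeR in each), all against Young Sham. Aged Sham 14 had the highest Vegfa and Vegfc and the lowest Vegfb of its group, and the part of these cells in the values was not tested.

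A further receptor and a further ligand complete the family. Flt4, which encodes VEGFR3, averaged 5.19 FPKM in Young Sham and 2.65 FPKM in Aged Sham (log2 fold change -0.85, adjusted p = 0.0564) and was not called in any comparison. Vegfd, listed under its older symbol Figf, averaged 0.654 FPKM in Young Sham, 2.53 in Aged Sham, 0.378 in Young Bleo and 0.615 in Aged Bleo. It was called higher in Aged Sham against Young Sham (log2 fold change 2.09, SE 0.56, adjusted p = 0.00997) and lower in Aged Bleo against Aged Sham (-2.21, SE 0.58, adjusted p = 0.00626) by DESeq2, and edgeR called neither (adjusted p of 0.0872 and 0.0714). Fibroblast markers, which are from a cell type that expresses Vegfd in the lung, summed to 38.1 to 75.4 FPKM in Young Sham, 23.7 to 54.1 in Young Bleo, 74.4 to 215 in Aged Sham and 13.0 to 61.1 in Aged Bleo. The Aged Sham sum was largely Inmt, at a mean of 117 FPKM against 30.3 FPKM in Young Sham. Pdgfra, Dcn and Tcf21 also averaged higher in Aged Sham, while Col1a1, Col1a2, Col3a1 and Lum averaged lower. The list median log2 fold change between the sham groups was 0.16, against 0.02 over all genes. Of 8 such markers, 3 were called lower in Aged Bleo against Aged Sham (1 by edgeR), where Nrp2 and Vegfa were called higher, and 4 in Aged Bleo against Young Sham (2 by edgeR), where Kdr and Nrp1 were called lower. In Young Bleo against Young Sham, 1 was called lower (1 by edgeR), and in Aged Sham against Young Sham 1 was called higher (0 by edgeR). Their part in the values of Vegfd or of the members was not tested.

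Downstream of VEGFR2, 31 signalling genes were examined. In Young Bleo against Young Sham, 5 were called higher and 3 lower, with a list median of -0.02 against 0.01 over all genes. Over all genes tested, 7.57% were called higher and 6.35% lower there. Nos3, the endothelial nitric oxide synthase, averaged 6.35 FPKM in Young Sham and 19.1 FPKM in Young Bleo (log2 fold change 1.57, SE 0.22, adjusted p = 3.68e-10). It also rose in Aged Bleo against Aged Sham (1.24, SE 0.25, adjusted p = 0.000175), from 5.10 to 13.0 FPKM. Prkca, a protein kinase C gene, fell in Young Bleo (-1.51, SE 0.51, adjusted p = 0.0264), although edgeR did not call it (0.0940). Prkcb rose (3.13, SE 1.01, adjusted p = 0.0168; edgeR 0.0698) from a mean of only 0.0177 to 0.142 FPKM. The other called genes, seen after testing, were Shb, Pik3r1 and Nfatc1 higher and Src and Gab1 lower. Aged Bleo against Aged Sham had 1 called higher (Nos3) and 2 lower, the small stress protein Hspb1 (-0.82, adjusted p = 0.0218) and the GTPase Rac1 (-0.54, adjusted p = 0.00424), neither called by edgeR (0.0879 and 0.0676). Against Young Sham, 6 were called higher and 0 lower in Aged Bleo (4 by edgeR), and 2 higher and 0 lower in Aged Sham (1 by edgeR). The shares over all genes were 3.40% higher and 2.45% lower in Aged Bleo against Aged Sham. Against Young Sham they were 6.58% and 3.15% in Aged Bleo and 2.24% and 1.12% in Aged Sham.

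Among 18 genes that traffic or restrain VEGF receptors, 1 was called higher and 5 lower in Young Bleo against Young Sham, with a median of -0.16. The shares over all genes were 7.57% higher and 6.35% lower. Dusp6, a phosphatase that switches off ERK, averaged 28.5 FPKM in Young Sham and 70.4 FPKM in Young Bleo (log2 fold change 1.29, SE 0.34, adjusted p = 0.00282). Spry1 and Spred2, inhibitors of the Ras to ERK route, fell (-1.08, adjusted p = 4.56e-05, and -1.24, adjusted p = 0.0192; edgeR did not call Spred2, at 0.0698). In Aged Bleo against Aged Sham, Ptprb, the endothelial phosphatase VE-PTP, was called higher (0.68, adjusted p = 0.00308; edgeR 0.0545) and Gipc1, the adaptor of neuropilin-1 in endosomes, lower (-0.64, SE 0.11, adjusted p = 2.94e-06). The counts were 1 of 18 in each direction there, beside 3.40% higher and 2.45% lower over all genes.

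Of 20 genes that VEGF is known to induce in ECs, 3 were called higher and 4 lower in Young Bleo against Young Sham, with a median of 0.06. The shares over all genes were 7.57% higher and 6.35% lower. Adamts1, an extracellular protease, averaged 8.62 FPKM in Young Sham and 38.7 in Young Bleo (log2 fold change 2.14, SE 0.42, adjusted p = 1.65e-05). Apln, the apelin ligand and also one of the aerocyte markers above, averaged 84.8 and 23.6 FPKM (-1.90, SE 0.34, adjusted p = 1.86e-06). Adamts1 rose in Aged Bleo against Aged Sham too (1.63, adjusted p = 0.0169; edgeR 0.112), as did the basement membrane gene Nid2 (2.15, adjusted p = 0.00418; edgeR 0.0777), while Plaur, the urokinase receptor, fell (-0.65, adjusted p = 0.0485; edgeR 0.130). Plaur was the single gene of the pathway lists, leaving aside the cell type markers, called between the injured groups. It was higher in Aged Bleo than in Young Bleo (0.93, SE 0.20, adjusted p = 0.00192; edgeR 0.122). In Aged Sham against Young Sham, only Cxcr4, the receptor of Cxcl12, was called of the 20 (-1.71, SE 0.37, adjusted p = 0.000469). The list therefore did not move in one direction.

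**Figure D5:**
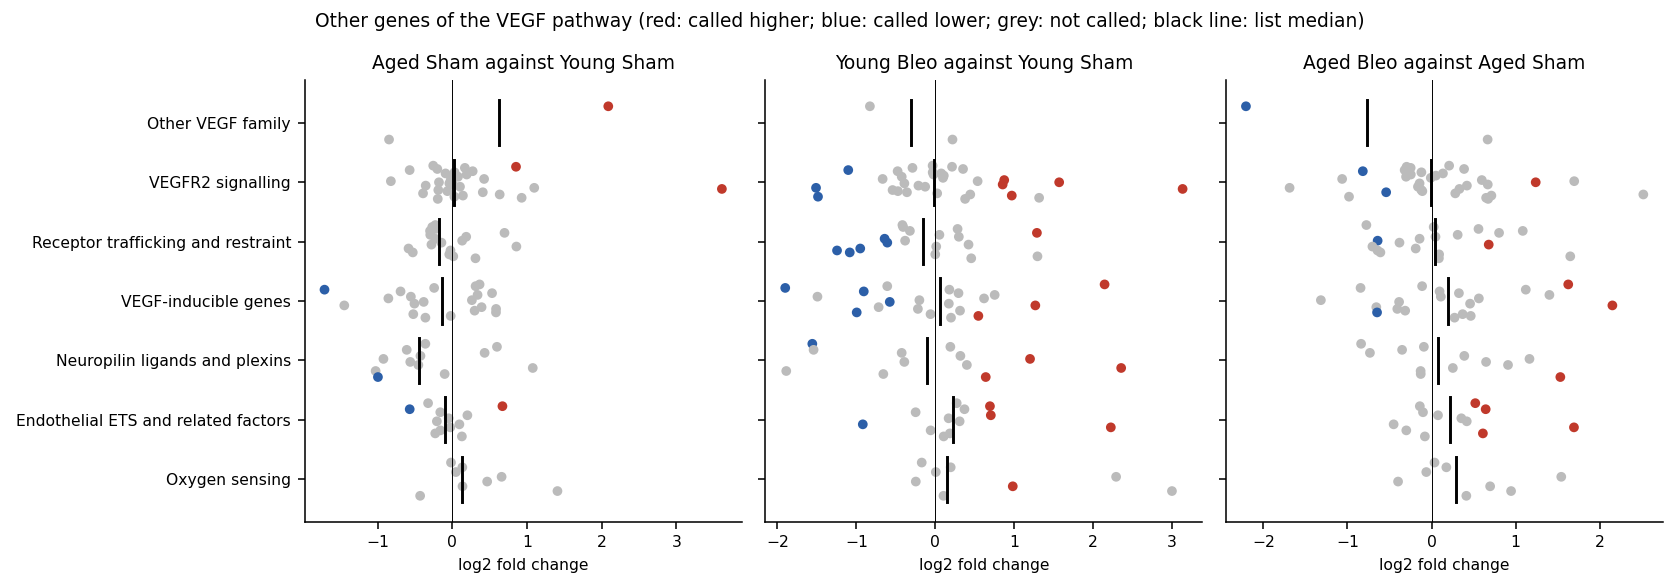
DESeq2 log2 fold change of the other genes of the VEGF pathway (1 point per gene, grouped by list on the vertical axis) in Aged Sham against Young Sham, Young Bleo against Young Sham and Aged Bleo against Aged Sham, with each list's median as a black line. Red and blue points were called higher and lower, and in most lists both colours appear, as in VEGFR2 signalling with 5 higher and 3 lower of 31 in the young bleomycin comparison.

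Semaphorins and plexins share the neuropilins with VEGF. Of 12 such genes, 3 were called higher and 1 lower in Young Bleo against Young Sham, beside 7.57% higher and 6.35% lower over all genes. Plxna1, a plexin that signals with Nrp1, averaged 20.4 FPKM in Young Sham and 7.17 in Young Bleo (log2 fold change -1.56, SE 0.32, adjusted p = 4.67e-05). The semaphorins Sema3d (2.35, adjusted p = 0.000104) and Sema3a (1.20, adjusted p = 0.0463; edgeR 0.0921) were called higher at mean levels under 1 FPKM. The third was Sema3g (0.64, adjusted p = 0.0285; edgeR 0.0585), outside the naming rule there. Sema3g, an endothelial semaphorin that binds Nrp2, averaged 3.93 FPKM in Aged Sham and 8.66 FPKM in Young Sham (-0.997, SE 0.24, adjusted p = 0.00310; edgeR 0.0558), and was called lower with age. It was called higher in Aged Bleo than in Aged Sham (1.53, SE 0.25, adjusted p = 2.58e-06; edgeR 0.03997), at a mean of 12.4 FPKM. It was the only one of the 12 called in the latter comparison, where 5.85% of all genes were called.

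Of 13 ETS and related endothelial transcription factors, 12 could be tested. Sox17, an arterial factor, rose from a mean of 17.5 to 82.6 FPKM in Young Bleo against Young Sham (log2 fold change 2.22, SE 0.36, adjusted p = 1.27e-07), Etv6 rose (0.70, adjusted p = 0.0117) and Gata2 fell (-0.92, adjusted p = 0.000623). Erg was the third gene called higher there, outside the naming rule and named after its values were seen, with means of 3.48 and 5.67 FPKM. Erg was also called higher in Aged Sham than in Young Sham (0.67, with an adjusted p = 0.00302; edgeR 0.0558), and was the single pathway gene called for the response in aged ECs minus that in young ECs (-0.83, SE 0.22, adjusted p = 0.0495), a call that edgeR did not share (0.407). Injured aged ECs had 4 of 12 called higher against Aged Sham (0 by edgeR), among them Sox17 (1.69, adjusted p = 0.00249; edgeR 0.0608), Ets1 (0.64, adjusted p = 0.0158; edgeR 0.0829) and Sox7 (0.61, adjusted p = 0.0352; edgeR 0.110). Of 8 genes of oxygen sensing, which control Vegfa in many cells, 1 was called in Young Bleo against Young Sham, Hif1a (0.98, SE 0.30, adjusted p = 0.00952), at means of 3.32 and 6.66 FPKM. Over all genes tested, 13.9% were called there (7.57% higher and 6.35% lower), so 1 of 8 does not stand out from that share. In Aged Bleo against Aged Sham, 0 of 8 were called by DESeq2 and 0 by edgeR, with 2 at an unadjusted p under 0.05. The share over all genes there was 5.85% by DESeq2 (3.40% higher and 2.45% lower).

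The genes whose pattern was most like each member were taken from 13774 genes by Pearson's r of log2(normalized count + 1) over the 16 libraries, which share the groups and the differences between libraries described above. Kdr was most like Trib2 (r = 0.982), Meis1 (0.981) and Ednrb (0.979), the endothelin receptor and aerocyte marker, and after the group means were removed these values were 0.9751, 0.969 and 0.956. Nrp1 was most like Ankrd44 (0.971), Sppl3 (0.970) and Tspan12 (0.970). Nrp2 was most like Sparcl1 (0.971), Gm9869 (0.967) and Nos3 (0.966), and within groups the value for Nos3 was 0.918. Vegfc was most like Alas1 (0.948), Bhlhe40 (0.919) and Pde4b (0.917), and the genes close to Vegfa included Ehd1 (0.907) and Etl4 (0.893). Flt1 was most like Adm (0.884) and Pgf most like Yeats2 (0.901), and the genes close to Vegfb included Polr2l (0.858). These are descriptions over libraries, with no test.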

How the data were processed

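The authors sorted the cells, aligned reads with STAR (2.5.2b in the submitters' processing notes) to mm10, and ran Subread (featureCounts) for gene counts in the MAPRSeq pipeline. The deposited table holds, per the file headers, a raw count and an FPKM for each gene and library. The annotation release and strand setting are not given in the sources used here. The labels name a SMART-Seq and Nextera kit and the methods of the study a TruSeq kit with poly(A) selection.

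Counts were tested with DESeq2 1.42.0 (R 4.3.3), the tool named in the study's methods, using Wald tests with its own size factors, log2 fold changes without shrinkage and Benjamini-Hochberg adjustment over all genes tested. All 16 libraries entered 1 model with group as the only term. The alternatives were edgeR 4.0.16, limma 3.58.1 (voom with sample weights, and trend on log2(FPKM + 0.1) for genes at 0.5 FPKM or more in at least 3 libraries), TMM factors, a filter of 10 counts in at least 3 libraries, the compared groups alone, and each library left out in turn. The steps were tested on simulated counts, where DESeq2 recovered more of the changed genes than edgeR but made false calls above its nominal rate, and edgeR stayed near it. Levels are given in FPKM, and normalized counts were used to screen for libraries that stood apart and for alike genes.

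The members and lists were chosen with earlier results of these data known. From each list, the text names up to 3 called genes per comparison with the largest absolute log2 fold change, and for each member the 3 most alike genes among those averaging 50 or more normalized counts. Some genes that this rule names are not reported here. Adgre1 was not matched among the marker genes. Promoter sequences are from RefSeq (GRCm38.p6, all 8 members matched). The 32 bases just before the start, and the whole stretch for Nrp1 and Pgf, were not printed to keep out annotated transcripts.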

Additional observations from a re-analysis of the deposited data

Results flagged for a closer look

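Each member was screened for a library far from the rest of its group, in the 3 groups with 4 or 5 libraries, on normalized counts. Of 24 such screens, 5 picked out a library, where chance picks out about 1 in 20. In Young Bleo, replicate 20 stood apart with 70375 normalized counts of Kdr and 56488 of Nrp1, both the highest of the group, and with 566 of Vegfb, the lowest of the group. In the same group, replicate 17 stood apart with 7440 normalized counts of Vegfc. In Young Sham, replicate 25 stood apart with 3183 normalized counts of Vegfc. Aged Sham, with 3 libraries, was not screened.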

How the results depend on the processing

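No paired analysis was possible because the replicate numbers do not repeat between groups. Of the 131 alternative counts of members called, 119 stayed within 1.5 times the value reported. In Aged Bleo against Aged Sham, the 2 members called became 1 with edgeR, 1 with the 2 groups fitted alone and 0 with limma voom, and 1 to 3 with a library left out. In Aged Sham against Young Sham, 0 became 1 (Pgf) with the 2 groups alone and 0 to 1 with a library left out. With a library left out, the count was 0 to 1 in Aged Bleo against Young Bleo and for the difference of the responses, 2 to 4 in Aged Bleo against Young Sham and 3 to 4 in Young Bleo against Young Sham. The libraries whose absence moved a count by over 1.5 times were Aged Bleo 1 and 2, Aged Sham 13, 14 and 15, and Young Bleo 20.

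Of the single estimates, 16 changed sign, none of them called. Vegfb in Aged Bleo against Aged Sham was 0.10 with limma on FPKM, 0.17 with limma voom and 0.28 at most with a library left out (lowest -0.39). Flt1 in Aged Sham against Young Sham was -0.0161 with limma on FPKM. Vegfa in Aged Bleo against Young Bleo was -0.0317 to 0.18 with a library left out (-0.0317 without Aged Bleo 1 and -0.00918 without Young Bleo 19). For the difference of the responses the ranges were -0.07 to 0.17 for Flt1 (-0.0726 and -0.0651 without Aged Bleo 1 or 2), -0.57 to 0.10 for Vegfb, -0.43 to 0.23 for Vegfc (0.02 and 0.03 without Aged Bleo 3 or 5, 0.16 without Aged Sham 14) and -0.15 to 0.46 for Pgf (-0.15 and -0.14 without Aged Bleo 1 or Aged Sham 13), and -0.0607 for Pgf with limma voom. The cause of these changes was not tested.

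Over all genes, edgeR called fewer than DESeq2: 146 against 1084 in Aged Bleo against Aged Sham (limma voom 0), 1043 against 1802 in Aged Bleo against Young Sham, 158 against 622 in Aged Sham against Young Sham, 8 against 191 in Aged Bleo against Young Bleo and 1 against 81 for the difference of the responses. Limma voom called 284, 26 and 2 genes in the last 3 of these, and limma on FPKM called 401, 1006, 152, 28 and 0 in the order given. The 2 groups fitted alone gave 647 in Aged Bleo against Aged Sham. With limma on FPKM, which also tested fewer genes, the median of all genes was -0.12 in Aged Sham against Young Sham and 0.11 in Aged Bleo against Aged Sham. With 1 library left out, the genes called by DESeq2 numbered 476 to 1494 in Aged Bleo against Aged Sham (476 without Aged Bleo 1, 655 without Aged Sham 15), 1050 to 2276 in Aged Bleo against Young Sham (1050 and 1117 without Aged Bleo 1 or 2), 111 to 470 in Aged Bleo against Young Bleo (111 without Young Bleo 19, 118 without Aged Bleo 5, 362 without Aged Bleo 1, 470 without Young Bleo 20), 370 to 691 in Aged Sham against Young Sham (370 without Aged Sham 14) and 37 to 232 for the difference of the responses (37 to 51 without Young Bleo 17, 18 or 19 or Young Sham 22, 232 without Young Bleo 20). Groups of 3 to 5 libraries limit the comparisons, and Pgf in Aged Sham rested on 50 to 292 counts per library.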
